A study of Oryctolagus cuniculus with 4 samples.

Results

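The genes below are switched on within minutes to hours of a stimulus or a stress, and were looked up by symbol in transcript counts from rabbit tendon: DDIT4, DUSP1, EGR1, EGR2, FOS, FOSB, JUN, JUNB, ATF3 and IER2. Of these 10 symbols, 8 had an entry, out of 20294 genes in all, and JUNB and IER2 had none. The 8 genes were carried by 9 transcripts, 2 of them from EGR1. DDIT4 and DUSP1 were chosen from measured values, because they were high in 1 of the tendons. The others were added by name as genes of the same class, with earlier results of these data known. Levels are therefore given as a description.

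The tissue was the semitendinosus tendon, one of the hamstrings, which surgeons transplant to rebuild torn ligaments, taken whole from 4 female New Zealand White rabbits aged 193 days, 1 tendon from each. All 4 were intact and formed a single group, so no treated or injured tendon was compared. Surface muscle was scraped off with a scalpel before the tendon was rinsed and frozen, and polyadenylated RNA was sequenced. Levels are in TPM, transcript abundances corrected for length and brought to a common total in each tendon.

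Immediate early genes are transcribed from factors already present in the cell, without new protein synthesis, and their RNAs are short-lived. MAP kinase signalling and serum response factor drive many of them, and their products are transcription factors (EGR, FOS, JUN and ATF proteins) or feedback inhibitors such as the phosphatase DUSP1, which inactivates MAP kinases. DDIT4, also called REDD1, is induced by hypoxia, glucocorticoids, DNA damage and energy stress, and restrains the growth kinase complex mTORC1. EGR1 is also known as a regulator of collagen genes in tendon cells.

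The 4 libraries held 19759696 to 30646052 estimated counts, with tendon 1 the shallowest. Tenocyte markers were present in each, with TNMD at 31.7 to 187 TPM and MKX at 73.8 to 169 TPM, whereas SCX had no entry. Summed muscle markers (13 of 14 symbols with an entry) stood at 7511 TPM in tendon 1 and between 15272 and 29710 TPM in the others, and fast fibre genes such as MYH2 were high only in tendon 4 among these tendons, at 240.3 TPM against at most 1.01. Mitochondrial transcripts took 9.82% and 9.83% of TPM in tendons 1 and 2, and 13.0% and 12.9% in tendons 3 and 4. In these bulk libraries, fewer cells of a type and less RNA per cell cannot be told apart.

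DDIT4 had the highest mean and the widest range of the 8 genes. It stood at 564, 74.4, 129 and 104 TPM in tendons 1 to 4, from 9064, 2046, 3184 and 2822 estimated counts (ENSOCUG00000016772.2, OryCun2.0 chromosome 18, 15149447 to 15151297, minus strand). Tendon 1 was far above the rest, and the other 3 tendons lay within 1.74-fold of each other. The mean was 218 ± 232 TPM (SD, n = 4), and 103 ± 27.5 TPM over the 3 tendons other than the highest. Tendon 1 exceeded tendon 2, the lowest, 7.58-fold, with a counting interval (95%, counting error only) of 7.22 to 7.95, and the next highest tendon 4.36-fold.

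DUSP1, a dual-specificity phosphatase of the nucleus that acts on p38, JNK and ERK, was likewise highest in tendon 1 and next highest in tendon 3, at a lower level. Its values were 211, 56.9, 78.6 and 54.7 TPM in tendons 1 to 4, from at least 2496 estimated counts per tendon (ENSOCUG00000007999.2, chromosome 3, 53837409 to 53841158, minus strand). Tendon 1 was again alone at the top, and the others differed by at most 1.44-fold. The mean was 100.3 ± 74.6 TPM (SD, n = 4), or 63.4 ± 13.2 TPM without tendon 1. The highest tendon was 3.86 times the lowest (counting interval 3.68 to 4.05) and 2.69 times the next highest.

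EGR1, a zinc finger transcription factor, was the third gene with tendon 1 well above the rest. It had 146, 29.1, 58.7 and 41.8 TPM in tendons 1 to 4, a mean of 68.95 ± 52.96 TPM (SD, n = 4; ENSOCUG00000008439.2, chromosome 3, 20738992 to 20741275, plus strand). The range was 5.03-fold, and tendon 1 exceeded the next tendon 2.49-fold. In tendons 1 to 3 all of its counts were assigned to 1 transcript of 1602 bases, while in tendon 4 a second transcript of 1365 bases received 96.7 of the gene's 1108 counts. EGR2, its paralogue with a known part in Schwann cell myelination, was low, at 6.71, 4.41, 5.46 and 7.45 TPM, and its highest tendon was tendon 4 (ENSOCUG00000013672.2, chromosome 18, 23380925 to 23387584). EGR1 was 21.8, 6.60, 10.7 and 5.61 times EGR2 in tendons 1 to 4, so the excess of EGR1 varied while EGR2 stayed within 1.69-fold.

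**Figure D1:**
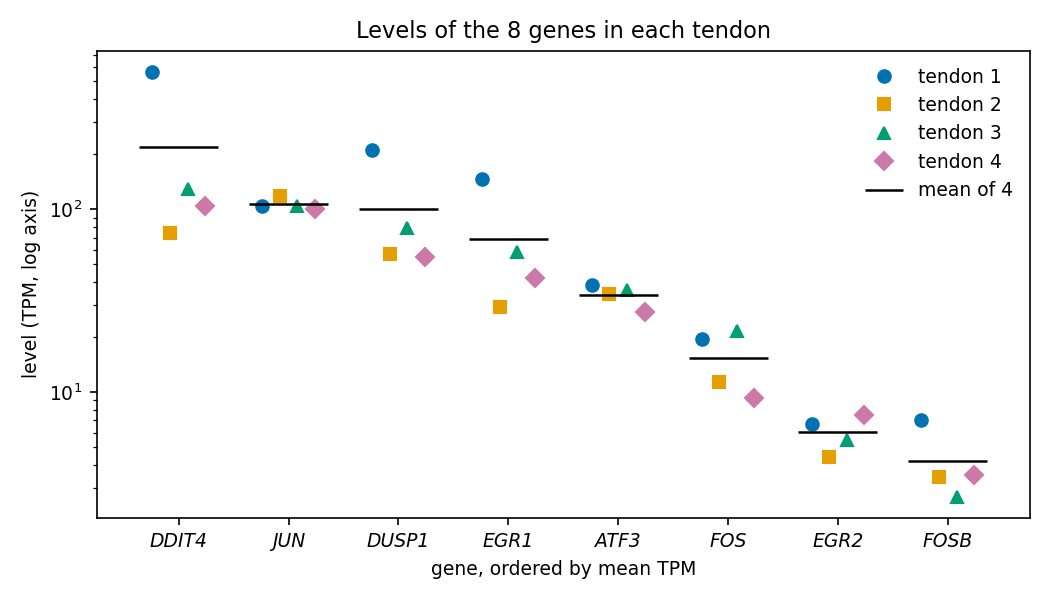
TPM on a log axis of the 8 genes in tendons 1 to 4 (points), ordered by mean, with the mean of 4 as a bar. DDIT4 reached 564 TPM in tendon 1 and at most 129 TPM elsewhere, while JUN lay between 99.8 and 119 TPM.

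The genes of AP-1, a dimer of FOS and JUN family proteins that binds many inducible promoters, did not share this profile as a group. JUN was the steadiest of the 8, at 104, 119, 104 and 99.8 TPM in tendons 1 to 4, a mean of 107 ± 8.26 TPM (SD, n = 4; ENSOCUG00000001212.2, chromosome 13, 107997083 to 107998096). Its highest tendon was tendon 2, and the range was 1.19-fold. FOS was highest in tendon 3 rather than tendon 1, with 19.4, 11.3, 21.5 and 9.22 TPM (ENSOCUG00000021506.2, chromosome 20, 29860027 to 29864096). Tendons 1 and 3 were high and tendons 2 and 4 low, with 1.11-fold between the top pair, where DDIT4 had 4.36-fold.

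FOSB, a FOS paralogue, was the least abundant member. It had 7.04, 3.44, 2.68 and 3.50 TPM from 67, 56, 39 and 56 estimated counts (ENSOCUG00000023019.2, unplaced scaffold GL019006, 121963 to 124101). The exact Poisson interval in tendon 1, 5.46 to 8.94 TPM, did not overlap that of tendon 4, 2.64 to 4.55 TPM, the next highest. The excess of tendon 1 over the next highest tendon was 2.01-fold in TPM and under 2-fold in each of the 4 other scalings tried. With scaling by TMM, which matches libraries on the bulk of their genes, FOSB stood at 3.50, 1.95, 1.38 and 1.76 CPM (counts brought to a common library total).

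ATF3, a stress-induced repressor of the same leucine zipper class, had a 1.41-fold range. Its values were 38.5, 34.4, 36.1 and 27.2 TPM, a mean of 34.0 ± 4.84 TPM (SD, n = 4; ENSOCUG00000017424.3, chromosome 16, 60423380 to 60431210). Tendons 1 to 3 were near each other, with tendon 4 lowest. Which of the 3 was highest changed with the scaling, from tendon 1 in TPM to tendon 2 with TMM or DESeq2 factors and tendon 3 in CPM by library total.

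By mean TPM the 8 genes ran DDIT4, JUN, DUSP1, EGR1, ATF3, FOS, EGR2 and FOSB. DUSP1 over EGR1, ATF3 over FOS and FOS over EGR2 were the neighbouring pairs that kept their order in all 4 tendons. The others kept it in 3. DDIT4 was 5.40 times JUN in tendon 1 but 0.626, 1.24 and 1.05 times JUN in tendons 2 to 4. JUN exceeded DUSP1 2.09-, 1.33- and 1.83-fold in tendons 2 to 4 and was 0.494 times DUSP1 in tendon 1. EGR1 was below ATF3 in tendon 2 alone, and EGR2 below FOSB in tendon 1 alone. JUN and EGR1 were measured on models of 954 and at most 1602 bases and DUSP1 on one of 2717 bases, and the table does not say how much untranslated sequence each model holds, so levels of different genes are compared less exactly than tendons.

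The spread of the 8 genes was read against all genes that averaged at least 1 CPM over the 4 tendons, which all 8 did. Of 12690 such genes, 4.39% reached 4-fold or more between the lowest and the highest tendon, and the median range was 1.44-fold. DDIT4 and EGR1 were past 4-fold, which makes 2 of 8. DDIT4 ranked 203rd of the 12690 genes by range, EGR1 362nd and DUSP1 600th. A range of at least 2-fold was found for 20.7% of genes and for 5 of the 8, FOS at 2.34-fold and FOSB at 2.63-fold being the further ones. JUN, with rank 10667, was in the steadier part of the transcriptome, and ATF3, with rank 6684 and a 1.41-fold range, was near the middle. Since the choice of DDIT4 and DUSP1 used these values, nothing is read from the counts.

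**Figure D2:**
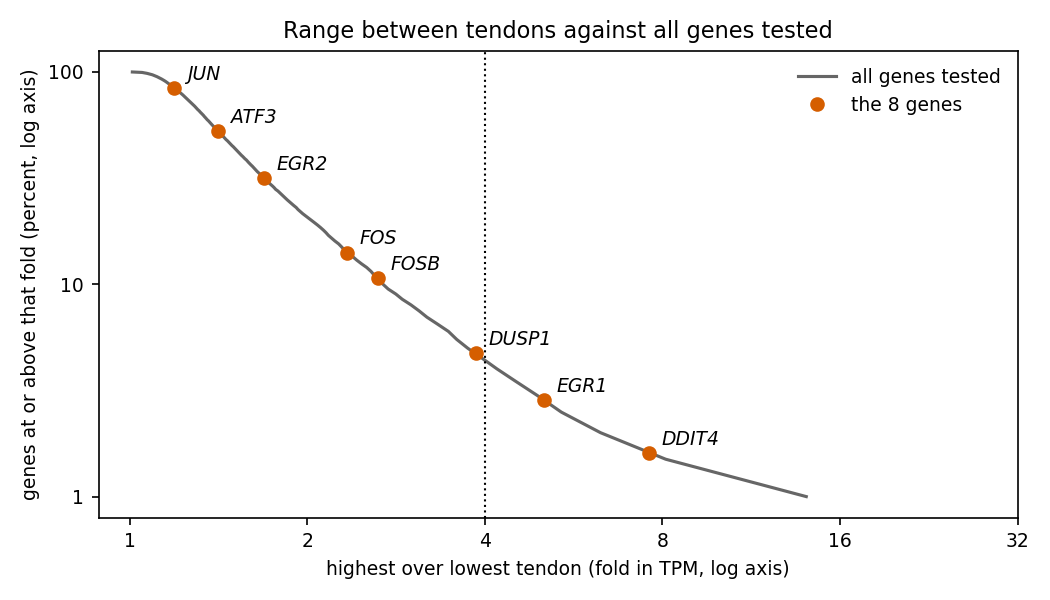
Percent of the 12690 genes tested (log axis) whose highest tendon is at or above a given multiple of the lowest in TPM (log axis), as a line, with the 8 genes as points and a dotted line at 4-fold. DDIT4 lies at 7.58-fold and JUN at 1.19-fold.

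Tendon 1 was the highest tendon for 5 of the 8 genes (DDIT4, DUSP1, EGR1, ATF3 and FOSB), against 38.8% of all genes tested. With TMM the numbers were 4 of 8 and 30.4%, and in CPM by library total 4 of 8 and 22.3%. In TPM, tendon 1 was at least 2-fold above every other tendon for DDIT4, DUSP1, EGR1 and FOSB, 4 of 8, against 0.37% of all genes, 47 in number. None of the 8 stood 2-fold above every other in tendons 2, 3 or 4, where 0.213%, 0.15% and 2.55% of all genes did. DDIT4, DUSP1 and EGR1 remained 2-fold above every other tendon in tendon 1 under all 4 other scalings, and FOSB did so under none of them. DDIT4 and DUSP1 were chosen for a high value in 1 tendon, so nothing is read from these counts either. In TMM-scaled CPM, DDIT4 had 473, 71.2, 112 and 88.7, a 6.64-fold range, DUSP1 299, 91.9, 115 and 78.4, a 3.81-fold range, and EGR1 122, 27.7, 50.8 and 34.8, a 4.41-fold range. In TPM the median gene lay at -0.11 in tendon 2 and 0.05 in tendon 1 on the log2 scale, relative to its own mean over tendons, and at 0.00 in both with TMM. The low DDIT4 and EGR1 values of tendon 2 include that shift.

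Markers of other cell types also differed between tendons. In tendon 1, summed muscle markers were lowest. Summed adipocyte markers (8 of 10 symbols) were 256 TPM there and 412 to 1082 TPM in the others, and endothelial markers (9 of 9) 247 TPM against 305 to 413 TPM. Pericyte and smooth muscle markers (7 of 9) gave 493 TPM against 522 to 644 TPM. Macrophage markers (11 of 11) were 168, 165, 280.2 and 382 TPM in tendons 1 to 4. Neutrophil markers (5 of 7) summed to 6.54 to 13.6 TPM, with CSF3R at most 0.12 and MPO at most 0.13 TPM. The rest of that sum was S100A8 (2.14 to 5.99 TPM), ITGAM (1.62 to 4.90 TPM) and S100A9 (2.32 to 2.68 TPM). Lymphocyte markers (6 of 8) summed to 4.57 to 15.4 TPM, mainly PTPRC (1.84 to 8.56 TPM) and CD79B (2.35 to 4.53 TPM), with CD3E at most 1.35 TPM. The erythroid genes ALAS2 and SLC4A1 were at most 0.81 and 0.59 TPM. Tenocyte markers (8 of 9, EGR1 among them) summed to 65736 TPM in tendon 1 and 28950 to 49431 TPM in the others. The largest parts of that sum in tendon 1 were DCN, COL1A2 and COL1A1, at 19666, 15234 and 15218 TPM. Of the 8 tenocyte genes, 5 were highest in tendon 1, against 38.8% of all genes tested. THBS4 and FMOD were highest in tendon 2 and TNMD in tendon 4. After TPM were rescaled without mitochondrial transcripts and marker genes, the range of DDIT4 was 7.52-fold and that of DUSP1 3.82-fold. This rescaling multiplies each library by a common factor, so it bears only on the share of TPM those genes take. The part of cell makeup in these values was not tested.

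Ratios between genes within a tendon do not depend on the scaling of libraries. DDIT4L, the paralogue of DDIT4 that also restrains mTORC1, had 22.6, 35.6, 32.7 and 44.9 TPM in tendons 1 to 4, lowest where DDIT4 was highest. DDIT4 was 24.97, 2.09, 3.96 and 2.33 times DDIT4L. DUSP1 took 67.1% of the summed TPM of 9 MAP kinase phosphatases in tendon 1, and 35.2%, 40.3% and 30.5% in tendons 2 to 4. The other 8 phosphatases together stayed between 103 and 125 TPM, so the summed level of the family (162 to 314 TPM) varied mainly through DUSP1. EGR1 was 0.511 to 0.764 times DUSP1, and DDIT4 2.67, 1.31, 1.65 and 1.91 times DUSP1. Within the FOS family, FOSL2, a member whose RNA is less transient than that of FOS, held 56.1% to 61.3% of summed TPM and FOS 26.4% to 36.6%. JUN was 1.56 to 3.41 times the FOS family as a whole.

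The 11 lists of related pathways held 204 symbols, alternative names included, of which 154 had an entry. Of these, 145 had a mean of at least 1 CPM. In tendon 1, 7 of the 145 were at least 2-fold above every other tendon, against 0.37% of all genes tested. In tendons 2 and 3 there were 0, against 0.213% and 0.15% of all genes. In tendon 4 there were 2, EGR3 and PSAT1, against 2.55%. The lists were drawn up with earlier results of these data known, so nothing is read from these counts. The 7 came from 3 lists. Other immediate early and rapidly induced genes gave 5 of 32. BHLHE40, a transcriptional repressor tied to hypoxia and the circadian clock, had 530, 208, 165 and 108 TPM in tendons 1 to 4, and HES1, a repressor downstream of Notch, 138, 59.4, 54.7 and 35.4 TPM. The clock gene PER1, which glucocorticoids induce, had 73.2, 16.3, 29.9 and 33.2 TPM, so its tendon 2 was lowest, as in DDIT4. GADD45G, a growth arrest gene, had 39.6 TPM in tendon 1 and 14.3 to 17.3 TPM in the others, and IER3, a survival-related early gene, 51.6 TPM against 20.2 to 25.5 TPM. IER3 and PER1 were under 2-fold in 3 and 1 of the 4 other scalings, respectively. The most abundant genes of this list, CYR61 (a secreted matricellular protein, 962 to 1079 TPM), ID3 (327 to 792 TPM) and CTGF (346 to 577 TPM), were not 2-fold apart, and CYR61 was lowest in tendon 1. The list's median deviation on the log2(TPM + 1) scale in tendon 1 was 0.24, against 0.05 over all genes tested and 0.55 for the 8 genes.

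**Figure D3:**
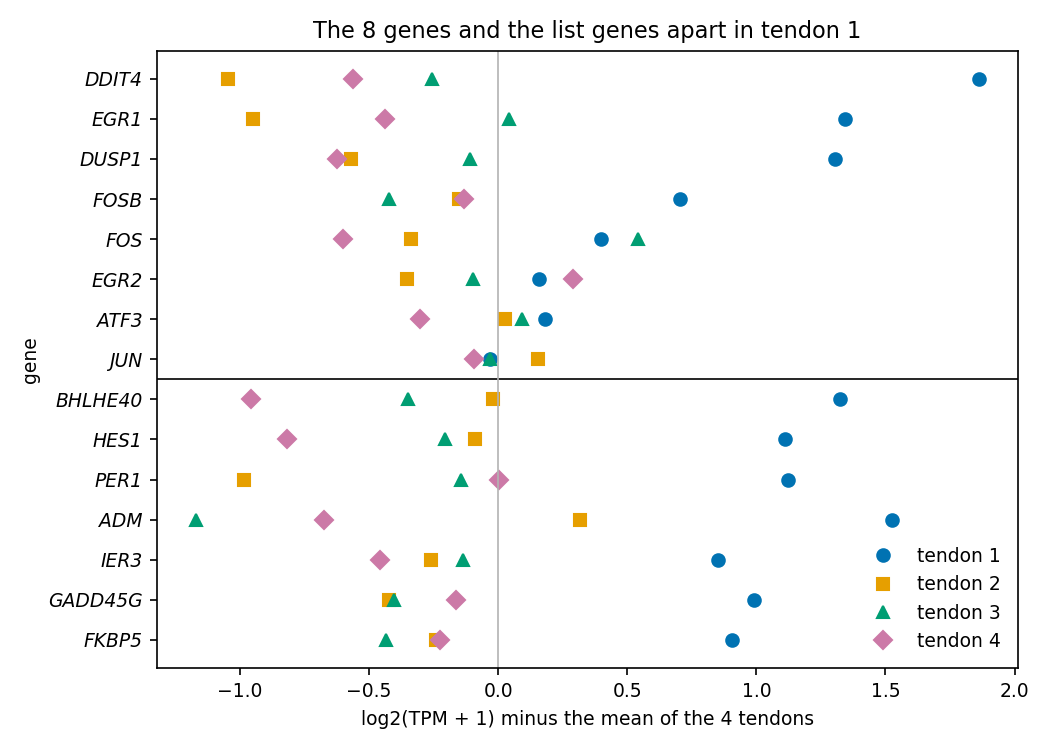
Deviation of log2(TPM + 1) from the mean of the 4 tendons for the 8 genes (above the line, ordered by range) and for the 7 genes of other lists at least 2-fold above every other tendon in tendon 1 (below the line), with 1 point per tendon. Tendon 1 lies farthest to the right for DDIT4, EGR1, DUSP1, FOSB, ATF3 and all 7 list genes, and near 0 for JUN.

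Stress and hormone signals, some of them named above as inducers of DDIT4, were described by lists of response genes, regulators included. These lists were drawn up with earlier results of these data known, so nothing is read from their counts. In the glucocorticoid response list, 9 of 13 genes were highest in tendon 1 (median deviation 0.32), against 38.8% of all genes. With TMM or DESeq2 factors or in CPM by library total, 7 or 8 of 13 were. FKBP5, a receptor co-chaperone and common readout of the hormone, was 2-fold apart, with 26.0, 11.2, 9.65 and 11.3 TPM. TSC22D3, another target also called GILZ, had 377, 239, 241 and 231 TPM, NR3C1, the receptor itself, 157, 93.3, 125 and 87.2 TPM, and GLUL, glutamine synthetase, 243 TPM in tendon 1 and 183 to 208 TPM in the others. Other genes of the list, named after their values were seen, went otherwise. ADAMTS1 was lowest in tendon 1, at 12.2, 18.8, 20.5 and 26.7 TPM in tendons 1 to 4. TAT was also highest in tendon 4, at 0.93 TPM, and PDK4 and ANGPTL4 were highest in tendon 3. In the hypoxia list, 14 of 21 genes were highest in tendon 1 (median deviation 0.26), and 11 or 12 of 21 in those other scalings, where the share of all genes was 30.4%, 30.985% and 22.3% in turn. ADM, the vasodilator peptide adrenomedullin, was 2-fold apart with 81.1, 34.6, 11.7 and 16.9 TPM. HIF1A had 255, 162, 206 and 155 TPM, whereas the collagen prolyl hydroxylase gene P4HA1 was high in tendons 1 and 2 (416 and 401 TPM) over tendons 3 and 4 (254 and 258 TPM), and BNIP3, a mitophagy receptor, lay between 234 and 289 TPM. EPAS1, CA9 and STC2, named after their values were seen, were lowest in tendon 1. EPAS1 had 85.0 TPM there and 89.1 to 101 TPM in the others, and STC2 0.976 against 1.44 to 1.83 TPM. CA9 had 1.36, 4.95, 2.67 and 1.57 TPM in tendons 1 to 4.

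Of 19 genes of the integrated stress response, a block on translation that acts through ATF4, 6 were highest in tendon 1, against 38.8% of all genes. The median deviation was -0.18. In that tendon 0 of the 19 were 2-fold apart, and 0.37% of all genes were 2-fold above every other tendon. DDIT3, also called CHOP, a stress-induced transcription factor gene named here after its values were seen, was highest in tendon 1, at 118, 60.7, 50.3 and 49.9 TPM, 1.94-fold above the next tendon. CEBPG had 64.2 to 83.9 TPM, SLC3A2, an amino acid transporter subunit, 121 TPM in tendon 1 and 83.0 to 99.9 TPM in the others, and DNAJB9, a chaperone of the endoplasmic reticulum, 75.6 to 120.3 TPM. PSAT1, of serine synthesis, was high in tendon 4 (9.14 TPM, against 2.01, 0.73 and 1.81 TPM). Of 7 p53 targets, 3 were highest in tendon 1 and 0 were 2-fold apart, with a median deviation of 0.12 against 0.05 over all genes. With TMM or DESeq2 factors or in CPM by library total, 1 of the 7 was highest there. CDKN1A, which halts the cell cycle, had 125, 121, 133 and 77.4 TPM, BAX, a mediator of cell death, 47.8 to 54.1 TPM, and PHLDA3 was lowest in tendon 1, at 79.95 TPM against 130.1 to 145 TPM.

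**Figure D4:**
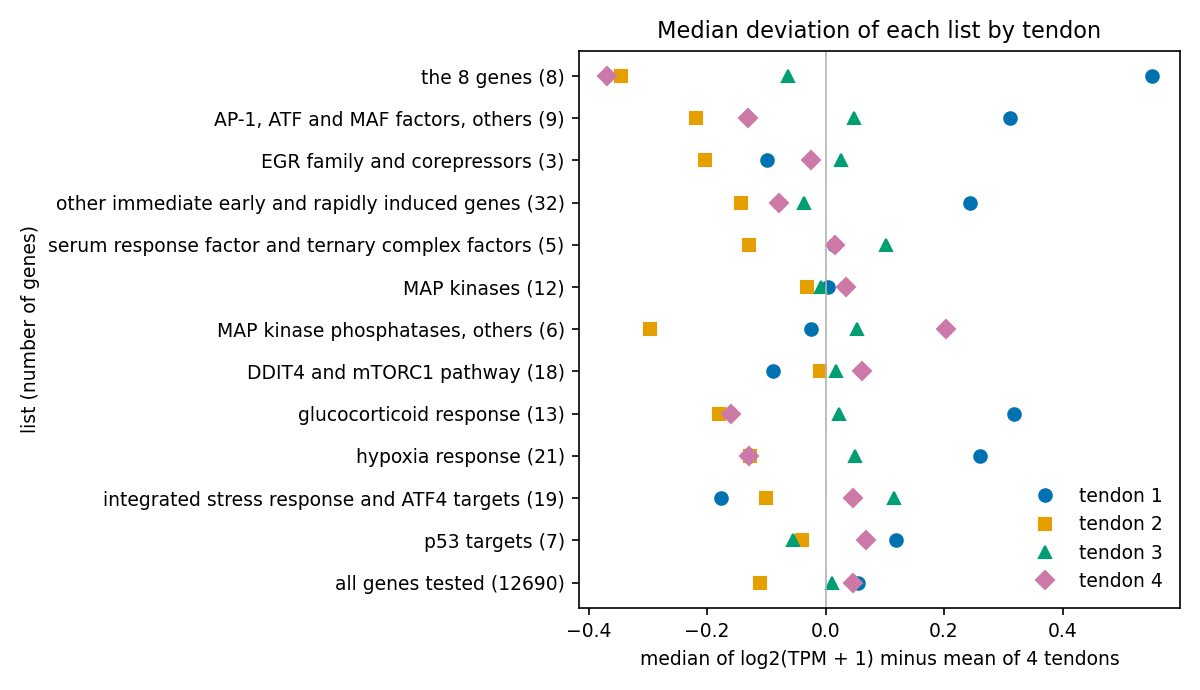
Median over the genes of each list of the deviation of log2(TPM + 1) from the mean of the 4 tendons, with 1 point per tendon and the number of genes in brackets. In tendon 1 the medians were 0.55 for the 8 genes, 0.32 for glucocorticoid response and -0.18 for the integrated stress response, against 0.05 over all genes tested.

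Of 12 MAP kinase genes, 0 were 2-fold apart in any tendon. Over all genes tested, 0.37%, 0.213%, 0.15% and 2.55% stood 2-fold above every other in tendons 1 to 4. Of the same 12690 genes, 214, 200, 36 and 27 stood 2-fold below every other in tendons 1 to 4. A count of 0 in a list this short, here and in the lists that follow, is thus near those shares. MAPK3 (ERK1) had 129 to 158 TPM, its activating kinase gene MAP2K1 99.6 to 124 TPM and MAP2K3, upstream of p38, 53.9 to 73.7 TPM. MAPK12, a p38 kinase gene named after its values were seen, had a wider range, 28.7, 78.9, 53.8 and 50.0 TPM, with tendon 1 lowest. SRF, which binds immediate early promoters, had 38.9 TPM in tendon 1 and 45.9 to 48.7 TPM in the others, and its cofactors ELK4 and ELK1 stood at 52.8 to 73.8 and 18.9 to 20.02 TPM. Of 18 genes of the DDIT4 and mTORC1 list, 0 were 2-fold apart in any tendon and 5 were highest in tendon 1, against 38.8% of all genes. YWHAZ, a 14-3-3 protein gene, had 521 to 690.1 TPM, the translation repressor gene EIF4EBP2 324 to 387 TPM and TXNIP, a binding partner of DDIT4, 293, 309, 458 and 254 TPM. SESN3, a sestrin gene also named after its values were seen, was highest in tendon 1, at 67.3 TPM against 28.4 to 40.8 TPM. Of 6 phosphatase genes besides DUSP1, 0 were 2-fold apart, led by DUSP6, the ERK-selective cytoplasmic phosphatase, at 30.7, 33.4, 57.0 and 48.6 TPM. DUSP6 was thus lowest in the tendon where DUSP1 was highest. DUSP16 and DUSP7 lay at 25.4 to 32.6 and 14.6 to 21.0 TPM. The median range of these 6 genes was 1.88-fold, above the 1.44-fold of all genes, and DUSP5, named after its values were seen, ranged 6.41-fold at a low level, from 0.222 to 1.42 TPM.

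Among other leucine zipper factors, 7 of 9 genes were highest in tendon 1 (median deviation 0.31), against 38.8% of all genes. This list too was drawn up with earlier results known, so nothing is read from the count. Of the 9 genes, 0 were 2-fold apart, and 0.37% of all genes were 2-fold above every other in tendon 1. MAFF had 79.1, 58.3, 74.8 and 50.3 TPM, ATF7 66.8 TPM against 43.4 to 48.0 TPM in the others, and JDP2, a repressor that pairs with JUN, 42.1 to 52.8 TPM. NAB1 and NAB2, corepressors that EGR1 recruits, had 54.2 to 82.6 and 19.3 to 28.3 TPM. Summed, they were 0.707 times EGR1 in tendon 1 and 1.60 to 2.66 times EGR1 in tendons 2 to 4. EGR3, an EGR paralogue, was highest in tendon 4, at 3.72 TPM against 0.72 to 1.53 TPM.

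Profiles over the 4 tendons were compared by the root mean square difference of log2(TPM + 1), each gene centred on its own mean, for 7294 genes with a symbol that averaged at least 10 CPM. Within the 8 genes, DDIT4 was nearest to EGR1 (0.31) and DUSP1 (0.37) and farthest from JUN (1.15). DUSP1 was 0.22 from EGR1. Outside them, the 5 nearest to DDIT4 were TENM1 (0.37), PER1 (0.47), COL11A2 (0.54), EDIL3 (0.54) and NFATC2 (0.57), and the 5 nearest to DUSP1 were EDIL3 (0.20), TENM1 (0.21), NFATC2 (0.22), COL11A2 (0.23) and ID1 (0.26). TENM1, a teneurin adhesion gene, had 11.2, 2.06, 3.44 and 3.26 TPM, and EDIL3, an integrin-binding secreted protein gene, 30.96, 10.95, 13.9 and 10.9 TPM. COL11A2, a minor fibrillar collagen chain, had 491, 177, 178 and 111 TPM, NFATC2, a calcium-regulated transcription factor gene, 44.4, 16.7, 21.5 and 16.7 TPM, and ID1, an inhibitor of basic helix-loop-helix factors, 281, 124, 152 and 100.03 TPM. With 4 points that share their libraries, likeness of this kind is a description of these tendons.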

How the data were processed

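Poly(A) RNA of 4 tendons was analysed from the deposited table of estimated counts per transcript, which were not scaled for depth or length by the authors. Kallisto 0.42.4, bcl2fastq, FastQC and build OryCun2.0 are named in the submitters' processing notes, without roles. Filters and strand use are not given in the sources used here. Symbols, coordinates and transcript lengths were deposited beside the counts, per the file headers. TPM were computed from counts and lengths and summed per gene. Depth was 19759696 to 30646052 counts, and 3 counts equal 0.0979 to 0.152 CPM. Intervals (95%, Poisson or log-normal for a ratio) cover counting error only.

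The members and lists were chosen with earlier results of these data known. Members of the class, up to 3 genes per list by mean TPM, all list genes at least 2-fold above or below every other tendon and the 5 nearest profiles were named. A pseudocount of 1 TPM was used on log scales. Alternatives were TMM (edgeR 4.0.16) and DESeq2 1.42.0 factors estimated on rounded counts, library totals, other filters and pseudocounts, rescaled TPM, and each tendon left out. No group comparison exists, so no count test was run. Counting steps were tested on simulated data. Python 3.11.15, pandas 2.3.3, numpy 2.4.6, scipy 1.17.1 and R 4.3.3 were used. Sequences were not used here.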

Additional observations from a re-analysis of the deposited data

Results flagged for a closer look

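Dixon's ratio, the gap of the most extreme tendon to its neighbour over the whole range, was computed for 56 printed quantities in TPM. DDIT4, DUSP1, sums and ratios that hold them, and genes named for standing apart in a tendon or for resembling DDIT4 were chosen by their values and were not put to it. Genes named after their values were seen, DDIT3 among them, were likewise left out, so the tally does not cover every printed gene. The ratio was above the 95% critical value for 4 samples for 4 quantities, and chance alone passes about 1 in 20. That rate is for separate quantities chosen without their values. Here the lists were drawn up with earlier results of these data known, and some quantities share genes. Nothing is therefore read from the tally. TSC22D3, a glucocorticoid target, was high in tendon 1, at 377 TPM against 231 to 241 TPM in the others (0.933). FOS over FOSB was 8.05 in tendon 3, where FOSB had 39 counts, and 2.63 to 3.28 in the others (0.881). MAP2K3, a kinase gene upstream of p38, was low in tendon 4 (0.866). Summed erythroid markers were 1.40 TPM in tendon 2 and 0.952 to 0.973 TPM in the others (0.953). That sum rests on 2 genes at a low level, ALAS2 (mean 0.548 CPM, under the filter) and SLC4A1 (mean 1.41 CPM).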

How the results depend on the processing

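The range of DDIT4 rested on tendon 1. Leaving out each tendon in turn gave 1.74- to 7.58-fold for DDIT4 and 1.44- to 3.86-fold for DUSP1, the lowest values without tendon 1. The DDIT4 range was 6.64-fold with TMM, 6.62-fold with DESeq2 factors and 6.87-fold in CPM by library total, where DUSP1 had 3.49-fold. The count of genes with a 4-fold range was 244 to 503 with a tendon left out (350 without tendon 1, 244 without tendon 4), 172 of 8780 genes at a minimum of 10 CPM and 3881 of 17344 genes without a filter; the filters change how many genes are tested. For genes 2-fold above every other tendon, the counts in tendons 1 to 4 were 26, 12, 5 and 85 at a minimum of 10 CPM and 374, 231, 416 and 1331 without a filter. In CPM by library total tendon 1 had 29 such genes, and tendon 2 had 44 with TMM and 47 with DESeq2 factors. Of the 8 genes, tendon 2 was highest for 2 with TMM and DESeq2 factors and tendon 3 for 2 in CPM by library total, each through ATF3. With a pseudocount of 5 TPM, 2 of the 5 genes nearest to DDIT4 and 3 of the 5 nearest to DUSP1 were kept. The rescaled TPM and the counts of list genes by scaling were chosen after seeing the data. No paired analysis was possible because all 4 tendons form 1 group. Each animal gave 1 tendon, so the animal, the handling of the tendon and the library cannot be told apart. Depth limits FOSB most, with 39 to 67 counts.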

Other observations

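Of the 47 genes at least 2-fold above every other tendon in tendon 1, 37 had a symbol, and 4 of these were among the 8 genes and 7 in the pathway lists. The following, chosen after their values were seen, were in neither. CXCL8, the neutrophil chemokine interleukin 8, had 5.01, 0.51, 1.33 and 1.18 TPM in tendons 1 to 4. MMP13, a collagenase, had 3.24, 1.40, 1.31 and 1.54 TPM, and BMP3, a bone morphogenetic protein, 1.91, 0.618, 0.711 and 0.491 TPM. VGLL3, a transcriptional cofactor, had 30.4, 15.2, 14.1 and 13.9 TPM. By the excess of tendon 1 over the next tendon, 3 genes without a symbol were ahead of DDIT4, which had rank 4 of the 47.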
